A study of Rattus norvegicus with 12 samples.

Results

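The genes described here encode enzymes that write, maintain or erase DNA methylation and the subunits of Polycomb repressive complex 2 (PRC2). They were followed in ventricular cardiomyocyte cultures from newborn rats that expressed forms of the transcription factor MEF2C. The list held 10 genes, Dnmt1, Uhrf1, Hells, Dnmt3a, Dnmt3b, Tet2, Ezh2, Ezh1, Eed and Suz12. Members were the probe sets whose single gene symbol in the platform annotation was one of these names, and each of 8 genes had 1 such probe set. No probe set carried the symbol Suz12 or Tet2 alone, so both were not analysed here. Of the 8 measured genes, 7 had a mean above the cutoff for low values (log2 4.78) and were tested among 10025 genes in all. Dnmt3b lay below it. The genes were listed with earlier results of these data known, and no measured value entered the rule that picks the probe sets.

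The 12 arrays formed 4 groups of 3, all from cultures of Wistar rats that were plated for 44 h in medium with 10% horse serum and 5% fetal bovine serum and then kept without serum for 24 h. The γ+ group received adenovirus carrying mef2Cγ+, and the γ- group received adenovirus carrying mef2Cγ-. The 23/24 group received adenovirus carrying mef2Cγ+23/24, a variant whose change the labels do not define. The control group was untreated, and no group received a virus without an insert, so virus and insert cannot be told apart in a comparison with control. The arrays are labelled biological replicates without mention of separate cell isolations, and p-values measure the spread between these samples.

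MEF2C is a DNA-binding regulator of muscle genes. Alternative splicing adds or skips its γ segment, to which repression of transcription has been ascribed. When DNA is copied, the new strand lacks methyl groups. UHRF1 recognises such half-methylated sites and brings in DNMT1, which restores the mark, and the remodeller HELLS opens packed chromatin to the methylation enzymes. DNMT3A and DNMT3B place methyl groups at unmethylated sites, and TET2 oxidises methylcytosine as a step in its removal. PRC2 methylates a lysine in the tail of histone H3 and keeps genes silent. EZH2 or EZH1 is its catalytic subunit, and EED and SUZ12 are needed for its activity. EZH2 is known mainly from dividing cells and EZH1 also from cells that no longer divide. In mouse hearts, PRC2 with EZH2 or EED is known to keep genes of other cell types silent during development.

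Of the 7 tested members, Uhrf1, Hells, Ezh2, Dnmt1 and Eed were higher in the γ+ cultures than in control cultures, by 3.26-fold, 3.23-fold, 2.74-fold, 2.70-fold and 1.76-fold. Dnmt3a, a second DNA methyltransferase, and Ezh1, the alternative catalytic subunit of PRC2, differed from control by -0.04 and -0.08 log2 and did not pass the test. In the γ- and 23/24 cultures, no member passed the test against control. The members thus divided within each enzyme family, with Dnmt1 apart from Dnmt3a and Ezh2 apart from Ezh1.

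**Figure D1:**
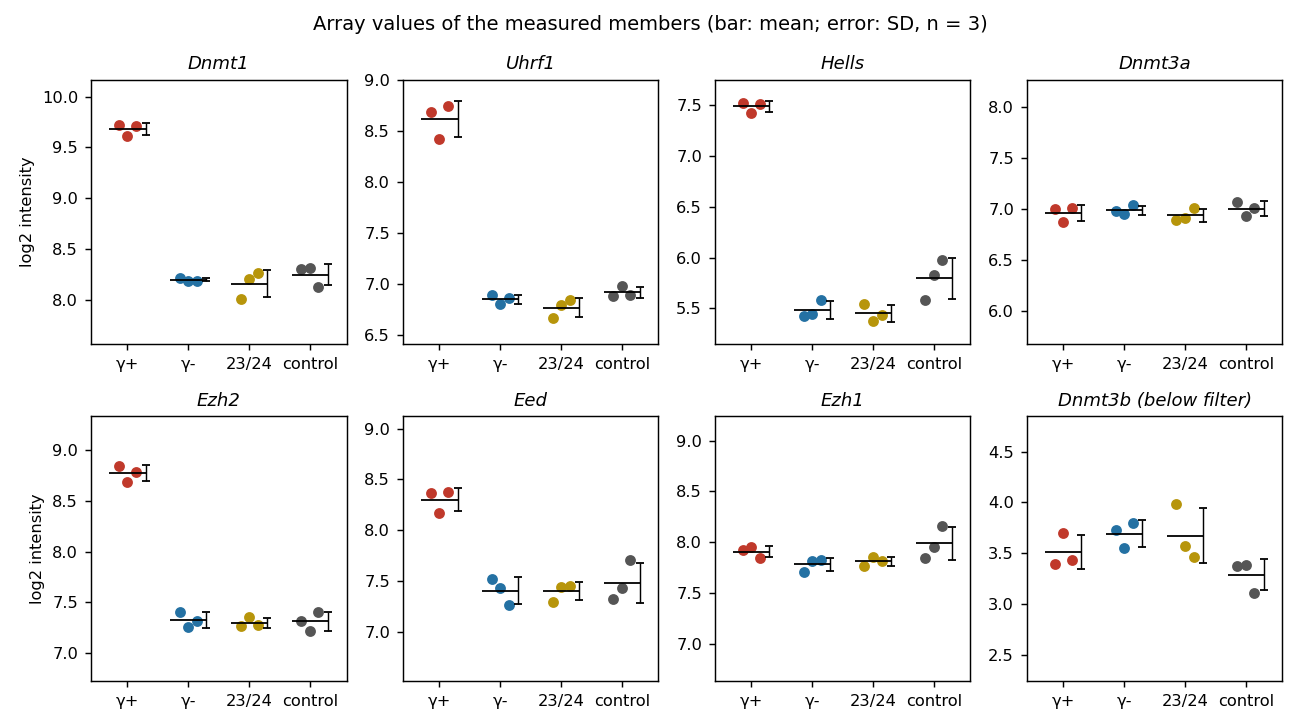
Log2 level of the 8 measured members on each array, with the γ+, γ-, 23/24 and control groups from left to right. Points are arrays, horizontal bars are group means and error bars are SD. The 3 γ+ arrays lie above all other arrays for Dnmt1, Uhrf1, Hells, Ezh2 and Eed, and Dnmt3b lies below the cutoff on every array.

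Promoter sequences are shown because 5 members moved together. The windows come from RefSeq (assembly GRCr8), run from 250 bases before to 50 bases after an annotated start and are written 5′ to 3′ on the gene's strand. A window was present for 8 of the 10 genes, and Uhrf1 had 3. Capitals mark the E2F-type motifs TTTGGCGC, TTTCCCGC and TTTCGCGC, read on either strand, and the last base before the start is counted as -1 and the first base of the transcript as 1. E2F factors are known to drive genes of DNA replication. The windows lie at chr9:1222936-1223235 (plus strand) for Uhrf1, chr1:246113879-246114178 (plus) for Hells, chr4:77687134-77687433 (minus) for Ezh2 and chr8:27762792-27763091 (minus) for Dnmt1. Those of Eed, which rose and holds none of the motifs, and Dnmt3a, which was not called, lie at chr1:153307451-153307750 (minus) and chr6:32598352-32598651 (plus).
Uhrf1: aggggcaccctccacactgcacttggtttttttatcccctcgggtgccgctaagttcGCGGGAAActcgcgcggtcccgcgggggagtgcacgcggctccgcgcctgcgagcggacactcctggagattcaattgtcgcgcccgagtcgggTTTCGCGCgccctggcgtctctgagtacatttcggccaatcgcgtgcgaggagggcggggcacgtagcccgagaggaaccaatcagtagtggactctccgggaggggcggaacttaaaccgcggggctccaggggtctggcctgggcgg
Hells: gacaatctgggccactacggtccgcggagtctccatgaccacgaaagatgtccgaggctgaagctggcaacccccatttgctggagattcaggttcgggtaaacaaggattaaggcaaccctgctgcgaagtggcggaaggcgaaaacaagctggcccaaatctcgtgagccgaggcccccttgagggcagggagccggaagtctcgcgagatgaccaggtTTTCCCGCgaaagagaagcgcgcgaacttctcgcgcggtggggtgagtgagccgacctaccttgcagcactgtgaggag
Ezh2: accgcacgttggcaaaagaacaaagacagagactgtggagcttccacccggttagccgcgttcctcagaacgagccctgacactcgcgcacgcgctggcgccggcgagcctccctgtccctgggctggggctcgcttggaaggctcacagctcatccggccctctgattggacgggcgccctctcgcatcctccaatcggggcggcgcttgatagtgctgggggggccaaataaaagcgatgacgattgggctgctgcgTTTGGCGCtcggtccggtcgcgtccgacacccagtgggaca
Dnmt1: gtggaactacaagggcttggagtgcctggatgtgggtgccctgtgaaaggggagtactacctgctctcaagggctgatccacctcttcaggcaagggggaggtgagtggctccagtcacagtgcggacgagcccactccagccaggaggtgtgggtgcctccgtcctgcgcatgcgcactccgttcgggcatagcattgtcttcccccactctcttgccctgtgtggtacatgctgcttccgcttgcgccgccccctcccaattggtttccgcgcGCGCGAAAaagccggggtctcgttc
Eed: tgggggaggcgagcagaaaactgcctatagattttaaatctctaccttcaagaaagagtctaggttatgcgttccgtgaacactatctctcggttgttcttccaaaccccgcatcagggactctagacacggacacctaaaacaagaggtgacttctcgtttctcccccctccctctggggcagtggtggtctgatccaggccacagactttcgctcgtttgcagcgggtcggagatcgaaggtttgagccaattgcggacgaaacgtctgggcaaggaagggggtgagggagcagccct
Dnmt3a: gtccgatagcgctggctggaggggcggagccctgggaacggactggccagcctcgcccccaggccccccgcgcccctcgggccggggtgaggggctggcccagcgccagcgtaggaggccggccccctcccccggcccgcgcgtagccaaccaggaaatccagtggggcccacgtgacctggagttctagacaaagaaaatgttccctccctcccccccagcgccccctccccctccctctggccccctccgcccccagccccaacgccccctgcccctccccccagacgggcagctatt

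The printed Uhrf1 window, the one of its 3 that holds such a motif, carries TTTCCCGC on the reverse strand at bases -193 to -186 from the start and TTTCGCGC at -99 to -92. Hells has TTTCCCGC at -29 to -22, and Ezh2 has TTTGGCGC at 10 to 17, just inside the transcript. In Dnmt1, TTTCGCGC lies on the reverse strand at 26 to 33. Suz12, which has no level here, has TTTCCCGC at -199 to -192, and the Tet2 window has none of the 3. Among all 33469 windows, 1.72% hold at least 1 of the 3 motifs, and among the 8319 tested genes with a window the share was 3.57%. The MEF2 motif (CTA, 4 bases of A or T, then TAG) was in none of the members' windows and in 0.565% of all windows. The CCAAT motif is in 37.5% of windows and GGGCGG in 33.1%. CCAAT lies in the printed windows of Uhrf1, Ezh2, Dnmt1 and Eed, and GGGCGG in those of Uhrf1, Ezh2, Dnmt1 and Dnmt3a. All motifs were read on both strands, and the only matches that overlap are CCAAT on opposite strands of Dnmt1. These matches describe letters in the windows, not binding, and motifs outside them were not searched.

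**Figure D2:**
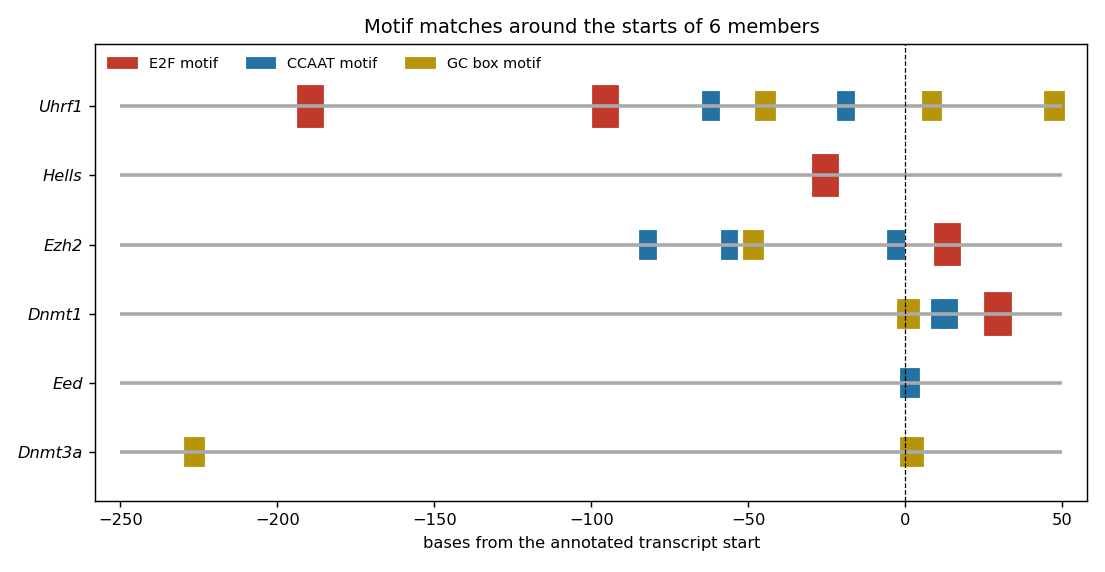
Positions of the E2F-type, CCAAT and GGGCGG motifs in the RefSeq promoter windows printed for 6 members, in bases from the annotated start, from 250 before to 50 after. Boxes are motif matches on either strand. Windows of Uhrf1, Hells, Ezh2 and Dnmt1 hold an E2F-type motif, and those of Eed and Dnmt3a hold none.

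The 3 genes of methylation maintenance come first. Uhrf1, which reads half-methylated DNA, had log2 levels of 8.69, 8.42 and 8.75 on the γ+ arrays, 6.89, 6.80 and 6.86 on the γ- arrays, 6.66, 6.79 and 6.84 on the 23/24 arrays, and 6.88, 6.97 and 6.89 on the control arrays. The γ+ arrays stood well above all others, and the 3 remaining groups lay close together. Uhrf1 averaged 8.62 ± 0.17 on γ+ arrays and 6.92 ± 0.05 on control arrays (SD, n = 3 each), a difference of 1.70 ± 0.08 log2 (SE) with a limma adjusted p of 2.0e-11. The fold was 3.26 with a 95% interval of 2.89 to 3.67. It ranked 57 from the top of the 10025 differences.

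Hells encodes the remodeller that CDCA7 brings to chromatin. Its log2 levels were 7.52, 7.42 and 7.51 on the γ+ arrays, 5.42, 5.44 and 5.58 on the γ- arrays, 5.54, 5.38 and 5.44 on the 23/24 arrays, and 5.58, 5.83 and 5.98 on the control arrays. The γ+ arrays were again far above the rest, and the control arrays were the most spread. The γ+ mean of 7.49 ± 0.05 was 1.69 ± 0.10 log2 (SE) above the control mean of 5.79 ± 0.20 (SD, n = 3 each), with a limma adjusted p of 1.7e-10 and a fold of 3.23. Of 1869 other genes whose control level lay within 0.5 log2 of that of Hells, 12 rose by at least as much.

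Dnmt1, the maintenance methyltransferase, had log2 levels of 9.72, 9.61 and 9.71 on the γ+ arrays, 8.21, 8.19 and 8.19 on the γ- arrays, 8.01, 8.21 and 8.26 on the 23/24 arrays, and 8.30, 8.31 and 8.13 on the control arrays. The γ+ arrays agreed closely with each other and did not overlap any other group. The γ+ mean was 9.68 ± 0.06 and the control mean was 8.25 ± 0.10 (SD, n = 3 each). Dnmt1 rose by 1.43 ± 0.07 log2 (SE), or 2.70-fold with a 95% interval of 2.43 to 2.99, at a limma adjusted p of 2.9e-11.

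Dnmt3a, which methylates unmarked sites, had log2 levels of 7.0, 6.87 and 7.01 on the γ+ arrays, 6.98, 6.95 and 7.04 on the γ- arrays, 6.90, 6.91 and 7.01 on the 23/24 arrays, and 7.07, 6.93 and 7.01 on the control arrays. All 4 groups overlapped. The γ+ group differed from control by -0.04 log2 with a 95% interval of -0.19 to 0.10, and the limma adjusted p was 0.610. The interval leaves out rises of the size seen for Dnmt1.

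Dnmt3b, the second enzyme of this kind, was below the cutoff on all 12 arrays and its mean of 3.54 was at the 19.7th percentile of all probe sets. Its log2 levels were 3.39, 3.70 and 3.44 on the γ+ arrays, 3.73, 3.55 and 3.80 on the γ- arrays, 3.98, 3.57 and 3.47 on the 23/24 arrays, and 3.37, 3.39 and 3.11 on the control arrays. When the filter was dropped, which raised the number of genes to 14497, it differed from control by 0.22 log2 in the γ+ group, 0.40 in the γ- group and 0.38 in the 23/24 group. The limma adjusted p was 0.190, 0.0749 and 0.475 in that order. The 95% intervals were -0.07 to 0.51, 0.11 to 0.70 and 0.09 to 0.68, so those of the γ- and 23/24 groups left out 0. None was called after adjustment, and at such low values a difference is hard to detect with confidence.

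Within PRC2, Ezh2 and Eed were raised. Ezh2, the catalytic subunit known from dividing cells, had log2 levels of 8.84, 8.69 and 8.78 on the γ+ arrays, 7.41, 7.26 and 7.32 on the γ- arrays, 7.27, 7.35 and 7.28 on the 23/24 arrays, and 7.32, 7.22 and 7.40 on the control arrays. The γ+ arrays lay above all others, which overlapped. The γ+ mean was 8.77 ± 0.08 and the control mean 7.31 ± 0.09 (SD, n = 3 each). Ezh2 rose by 1.46 ± 0.07 log2 (SE), a fold of 2.74 with a 95% interval of 2.48 to 3.03 and a limma adjusted p of 1.6e-11.

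Eed, the subunit that binds the methylated histone tail, had log2 levels of 8.36, 8.17 and 8.38 on the γ+ arrays, 7.52, 7.43 and 7.26 on the γ- arrays, 7.30, 7.44 and 7.45 on the 23/24 arrays, and 7.32, 7.43 and 7.70 on the control arrays. The γ+ arrays were again the highest, by a smaller margin. Eed rose by 0.82 ± 0.10 log2 (SE, n = 3 per group), or 1.76-fold with a 95% interval of 1.53 to 2.03, at a limma adjusted p of 1.4e-06. Its rank from the top was 457, against 102 for Ezh2.

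Ezh1, the other catalytic subunit, had log2 levels of 7.93, 7.95 and 7.85 on the γ+ arrays, 7.71, 7.81 and 7.83 on the γ- arrays, 7.77, 7.86 and 7.81 on the 23/24 arrays, and 7.85, 7.96 and 8.17 on the control arrays. The γ+ and control arrays overlapped. The γ+ group differed from control by -0.08 log2 with a 95% interval of -0.24 to 0.08 and a limma adjusted p of 0.342.

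**Figure D3:**
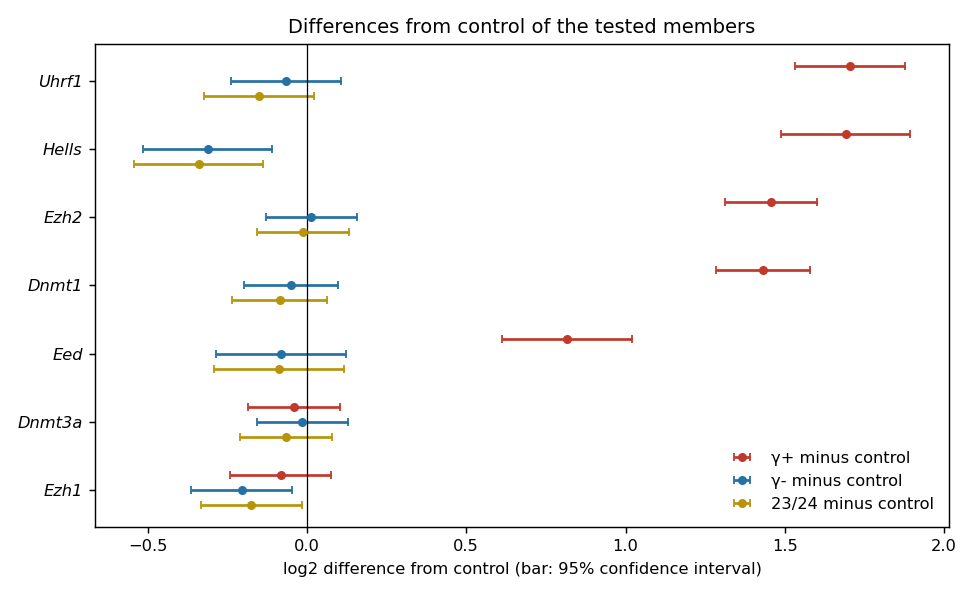
Log2 difference of the 7 tested members from control in the γ+, γ- and 23/24 groups, with 95% intervals from limma as bars. The γ+ intervals of Dnmt1, Uhrf1, Hells, Ezh2 and Eed lie between 0.61 and 1.89, and those of Dnmt3a and Ezh1 include 0.

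The count for the γ+ group was thus 5 of 7 tested members higher and 0 lower. Among all 10025 genes, limma called 26.2% higher and 38.7% lower in the same comparison. The members' median difference was 1.43, against -0.07 over all genes. The γ+ arrays did not overlap the control arrays for 5 members, and for 66.6% of all genes. Over all groups, a moderated F test in limma called 5 of the 7 members, against 70.3% of all genes. The adjusted p was 0.788 for Dnmt3a and 0.0753 for Ezh1. With other settings of the fit the F test called 4 to 6 members, and 5 or 6 when single arrays were left out. Median centring of the arrays changed the split of all calls from 2631 higher and 3878 lower to 3187 higher and 3041 lower, and the same 5 members remained higher.

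One γ+ array stood apart from its group. Replicate 2 correlated at 0.990 with the other γ+ arrays over the tested genes, where all other pairs of arrays within a group reached at least 0.995. It was the lowest γ+ array for all 5 members that rose. The arrays also seem to come from 3 normalization runs. Control and 23/24 arrays shared exactly equal values, as did γ+ arrays with each other and γ- arrays with each other (all 21 such pairs), whereas 0 of the other 45 pairs did. Of the comparisons with control, the one of the 23/24 group was therefore the one made within a run. The γ+ arrays appear to form a run of their own, as do the γ- arrays. In every comparison of the γ+ or γ- group, run and group thus cannot be told apart. Without γ+ replicate 2, the 5 members were still called higher.

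The γ+ group was also set against the other MEF2C forms. The same 5 members were higher than in the γ- group, where limma called 26.7% of all genes higher and 37.5% lower. They were higher than in the 23/24 group as well, where 28% of genes were higher and 37.9% lower. Hells showed the widest gap, at 2.00 log2 or 4.01-fold against the γ- group and 2.03 log2 or 4.09-fold against the 23/24 group, with limma adjusted p of 2.4e-11 and 1.9e-11. Uhrf1 differed by 1.77 and 1.86 log2, Dnmt1 by 1.48 and 1.52, Ezh2 by 1.44 and 1.47, and Eed by 0.90 in both comparisons. These comparisons share the γ+ arrays and are not separate evidence.

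Ezh1 was 0.12 log2 higher in the γ+ group than in the γ- group (limma adjusted p = 0.163) and 0.09 higher than in the 23/24 group (0.288). After median centring it was called in both, at 0.20 log2 with a limma adjusted p of 0.0411 against the γ- group and 0.23 with 0.0176 against the 23/24 group. The direction was the same, and the call depended on the scaling. Median centring also changed the split of all calls against the 23/24 group from 2804 higher and 3795 lower to 3703 higher and 2628 lower. The median over all genes was -0.07 as deposited and 0.07 after centring in that comparison.

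In the γ- cultures, no member was called against control, where limma called 3.06% of all genes higher and 3.88% lower. Dnmt1 differed by -0.05 log2 with a 95% interval of -0.20 to 0.10, Uhrf1 by -0.07 (-0.24 to 0.11), Ezh2 by 0.01 (-0.13 to 0.16) and Eed by -0.08 (-0.28 to 0.12). All 4 intervals leave out the γ+ differences of the same genes. At an unadjusted p under 0.05, 2 of the 7 members were lower, Hells and Ezh1, and 2288 of all 10025 genes differed in either direction. Hells differed by -0.31 log2 with a 95% interval of -0.51 to -0.11 and a limma adjusted p of 0.0607, and its γ- and control arrays overlapped by 1 value. Ezh1 differed by -0.21 log2 with a limma adjusted p of 0.108, and its arrays were the only ones among the 7 that did not overlap, against 33.4% of all genes. Without γ+ replicate 2 both passed, with adjusted p of 0.0310 for Hells and 0.0462 for Ezh1. That fit called 7.05% of all genes higher and 9.58% lower. Without control replicate 1 Hells passed, at -0.42 log2 and 0.0244. With single arrays left out, the difference ran from -0.42 to -0.22 log2 for Hells and from -0.28 to -0.12 for Ezh1. Over all settings, the limma adjusted p reached up to 0.22 for Hells and 0.38 for Ezh1.

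In the 23/24 cultures, no member was called either, and limma called 0 of all 10025 genes higher and 0 lower (0% each). At an unadjusted p under 0.05 there were 899 genes in all and 2 members, Hells and Ezh1. Hells differed by -0.34 log2 with a 95% interval of -0.54 to -0.14 and a limma adjusted p of 0.309. Its 23/24 arrays lay below all control arrays. Of the 1869 other genes of like control level, 4 had a difference as low or lower. Ezh1 differed by -0.18 log2 (-0.33 to -0.02, limma adjusted p = 0.523). Uhrf1 differed by -0.15 log2 (-0.32 to 0.02), and its arrays also did not overlap those of the control. Non-overlap was thus seen in 2 members and in 17.9% of all genes. Dnmt1 and Ezh2 differed by -0.09 and -0.01 log2. With single arrays left out, the difference ran from -0.45 to -0.25 log2 for Hells and from -0.25 to -0.09 for Ezh1. The γ- and 23/24 comparisons share the control arrays, so the lower values of Hells and Ezh1 in both are not separate evidence.

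Between the γ- and 23/24 groups no member was called in either direction, with 4.16% of all genes higher and 3.94% lower in the γ- group by limma. The differences of the 5 members that rose in the γ+ group ran from 0.01 log2 for Eed to 0.08 for Uhrf1. At an unadjusted p under 0.05 there were 0 members here and 2454 of the 10025 genes.

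To set related enzymes against each other on the same array, the difference of their log2 levels was taken relative to its mean in the control. For Ezh2 minus Ezh1 this was 1.54 ± 0.11 in the γ+ group (SD, n = 3), with arrays from 1.41 to 1.62, against -0.09 to 0.15 on the control arrays. For Dnmt1 minus Dnmt3a it was 1.47 ± 0.02 in the γ+ group, against -0.13 to 0.14 on the control arrays. These values do not depend on a shift of a whole array, and in both pairs the γ+ arrays were far above the control arrays. Uhrf1 minus Dnmt1 reached 0.27 ± 0.12, with arrays from 0.14 to 0.38 in the γ+ group against -0.09 to 0.09 in the control. Ezh2 minus Eed reached 0.64 ± 0.06, against -0.13 to 0.17. An exact permutation test of 3 arrays against 3 cannot give a two-sided p below 0.1, and each of the 4 pairs gave 0.1 in the γ+ group.

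In the γ- and 23/24 groups the same pairs stayed nearer the control. Ezh2 minus Ezh1 averaged 0.22 ± 0.13 in the γ- group and 0.16 ± 0.02 in the 23/24 group (SD, n = 3 each), with an exact permutation p of 0.2 in each. Dnmt1 minus Dnmt3a averaged -0.04 ± 0.05 in the γ- group and -0.02 ± 0.10 in the 23/24 group. Over the 12 tests of pairs the smallest p was 0.1, so none can pass a correction for their number.

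**Figure D4:**
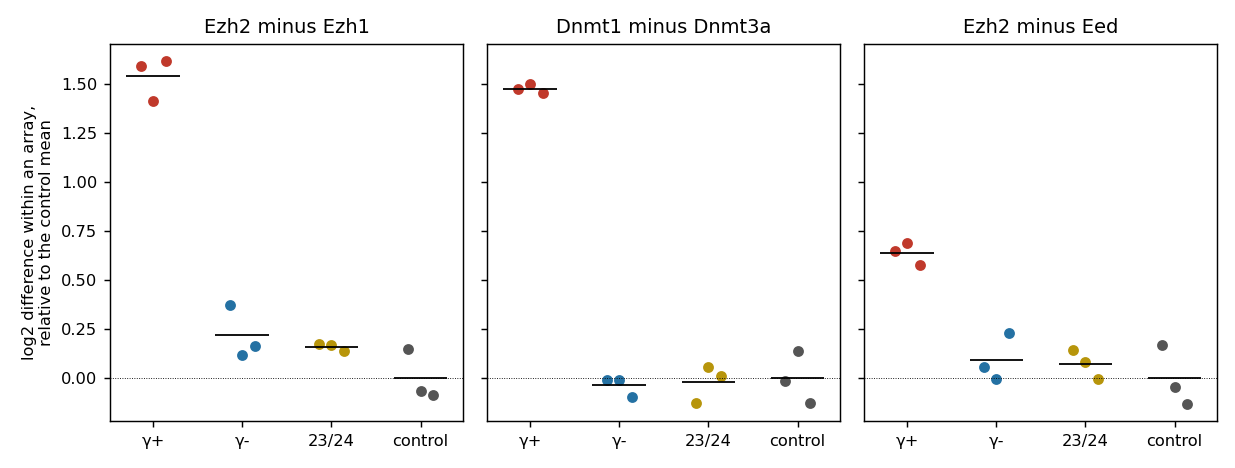
Within-array log2 difference between paired members, set to a control mean of 0, for each array of the γ+, γ-, 23/24 and control groups from left to right. The γ+ arrays lie between 1.41 and 1.62 for Ezh2 minus Ezh1 and between 1.45 and 1.5 for Dnmt1 minus Dnmt3a, and in these pairs the other arrays lie between -0.13 and 0.37.

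Over the 12 arrays, and with each gene centred on its control mean, the members closest to each other were Dnmt1 and Ezh2, with a root mean square difference of 0.108 log2. Uhrf1 and Hells differed by 0.198 and Dnmt3a and Ezh1 by 0.151, and the farthest pair was Uhrf1 and Ezh1 at 0.905. Among all tested genes, those most like Uhrf1 were Fancd2, a protein of DNA crosslink repair, at 0.0796, and the replication factors Mcm10 and Mcm6 at 0.0862 and 0.0907. Those most like Ezh1 were Tex9 at 0.0658, Prpf18 at 0.0694 and Emc6 at 0.0745. All 12 points of each gene share the arrays and their runs, so these are descriptions of likeness.

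Further genes of the same systems were counted by list, without a test of the list, and each count stands against 26.2% of all genes higher and 38.7% lower in the γ+ group. Among the PRC2 partners, 5 of 7 tested genes were higher and 1 lower in the γ+ group than in control, with a median difference of 0.48 against -0.07 over all genes. Phf19, an accessory subunit that guides PRC2 to chromatin, averaged log2 7.19 ± 0.12 on γ+ arrays and 5.76 ± 0.11 on control arrays (SD, n = 3 each), a rise of 1.43 with a limma adjusted p of 3.0e-10. The related Mtf2 rose by 0.74 (1.4e-07) and the histone chaperone Rbbp4 by 0.61 (5.0e-06). Phf1, of the same accessory family and named after its value was seen, fell by 0.28, a call that median centring removed (limma adjusted p = 0.0521). Jarid2 and Ezhip had no probe set.

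Among the partners of DNA methylation, 8 of 10 tested genes were higher and 0 lower, with a median of 0.38. Pcna, the sliding clamp that binds DNMT1 at the replication fork, averaged log2 10.10 ± 0.04 on γ+ arrays and 8.69 ± 0.02 on control arrays (SD, n = 3 each), a difference of 1.41 with a limma adjusted p of 4.8e-12. Cdca7, which recruits HELLS, rose by 1.15 (3.1e-07), and Ahcy, which removes the by-product of methyl transfer, by 0.58 (1.2e-07). For PRC1, the second Polycomb complex, 7 of 20 genes were higher and 1 lower, with a median of 0.02. Kdm2b, which binds unmethylated CpG sites, rose by 0.86 (limma adjusted p = 4.3e-08), Cbx2, a chromodomain subunit, by 0.68 (7.0e-05) and Rnf2, the ubiquitin ligase, by 0.42 (6.3e-06). Pcgf5, named after its value was seen, fell by 0.40, and by 0.23 without γ+ replicate 2.

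The lists of genes that remove or read these marks held both rises and falls. Of 7 tested genes for DNA demethylation, 4 were lower and 1, the glycosylase Tdg (0.30, named after its value was seen), was higher in the γ+ group, with a median of -0.38. Gadd45g averaged log2 5.91 ± 0.19 on γ+ arrays and 6.97 ± 0.05 on control arrays (SD, n = 3 each), and Gadd45a fell by 0.47 (limma adjusted p = 2.1e-06). Both are stress-induced genes with a reported role in demethylation. Tet1 and Tet3 had no probe set and Tet2 was not analysed, so no TET enzyme was measured here. Idh1, whose product feeds the TET enzymes, fell by 0.52 (2.7e-06), and Idh2, named after its value was seen, by 0.38. Of 5 tested methyl-CpG readers, Zbtb38 fell by 0.71 (limma adjusted p = 6.1e-08) and Mbd1 rose by 0.34 (2.6e-04). Of 3 tested genes for the removal of Polycomb marks, the deubiquitinase Usp16 rose by 0.25 (0.00162).

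**Figure D5:**
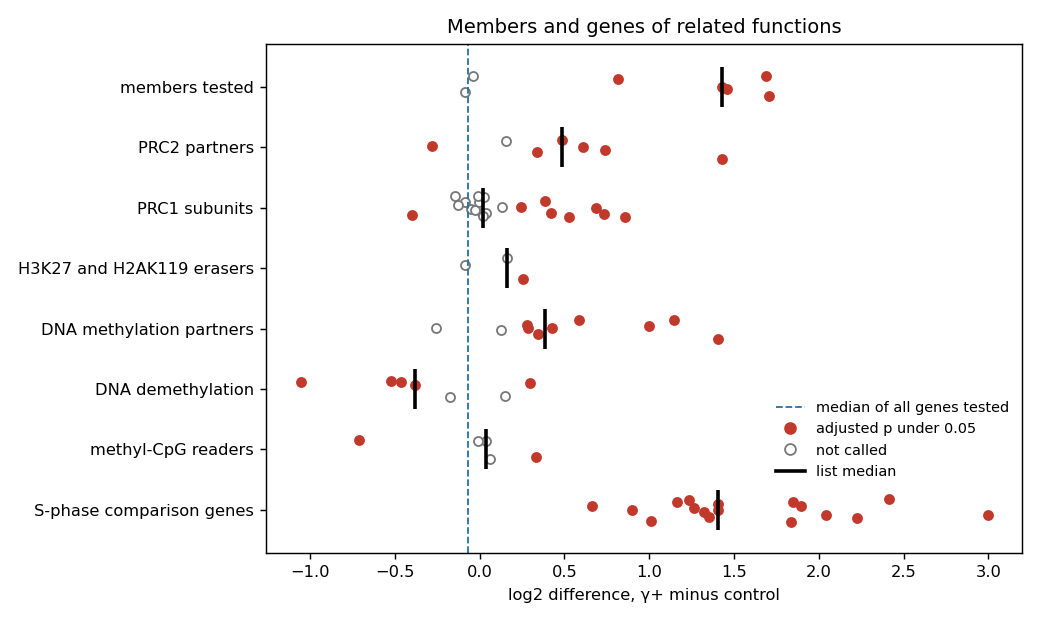
Log2 difference from control in the γ+ group for each tested gene of the members and the lists of related genes, with the median of each list and a line at the median over all genes (-0.07). The medians run from 1.43 for the members and 1.41 for the S-phase genes to -0.38 for the DNA demethylation genes.

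In the γ- group, 3 of the 68 genes tested over these lists and the S-phase list were called against control, all higher, a share near the 3.06% of all genes called higher and 3.88% called lower. Phc2, a PRC1 subunit, rose by 0.33 (limma adjusted p = 0.0254), Mbd2, a methyl-CpG reader, by 0.17 (0.0483) and Ccne2, the cyclin of S-phase entry, by 0.35 (0.00728). In the 23/24 group limma called 0 genes of these lists, with 6 at an unadjusted p under 0.05 (1 partner of DNA methylation and 5 S-phase genes).

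Genes of DNA synthesis and markers of cell types moved in the γ+ group as well. Their counts stand against the same 26.2% of all genes called higher and 38.7% called lower. All 17 tested S-phase genes were higher, with a median of 1.41, led by Ccne2 at 3.0 (limma adjusted p = 7.4e-15), and Mcm2 rose by 1.41 (5.4e-10). Mki67 had no probe set. Their summed level was log2 13.56 to 13.82 on the γ+ arrays and 12.30 to 12.35 on the control arrays. Dnmt1, Uhrf1, Hells and Ezh2 are known from dividing cells, and the part of this shift in their rise was not tested.

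The cultures carried the markers of cardiomyocytes, all 10 above the cutoff, and also those of other heart cells. In the γ+ group, 9 of 10 cardiomyocyte markers were lower, with a summed level of log2 14.27 to 14.39 against 15.24 to 15.31 in the control. So were 10 of 10 fibroblast markers (11.87 to 12, against 13.35 to 13.38 in the control), 9 of 9 endothelial markers (9.93 to 10.08, against 10.55 to 10.65), 8 of 8 smooth muscle and pericyte markers (13.47 to 13.55, against 14.22 to 14.25) and 6 of 8 macrophage and leukocyte markers (9.65 to 9.72, against 10.11 to 10.26). Ptprc and C1qa were below the cutoff. Over all genes, limma called 38.7% lower in the γ+ group. In the γ- group, 1 cardiomyocyte and 1 endothelial marker were called higher, against 3.06% of all genes. Called lower there were 1 fibroblast, 2 endothelial, 1 smooth muscle and pericyte and 3 macrophage and leukocyte markers, against 3.88% of all genes. In these bulk cultures, fewer cells of a type and less RNA per cell cannot be told apart, and the part of the cell make-up in the members' differences was not tested.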

How the data were processed

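Gene expression was measured on Affymetrix rat gene arrays in 12 cultures, 4 groups of 3. The deposited values were taken as log2 intensities, with a range of 1.09 to 13.89 and medians per array between 5.33 and 5.53. MAS5 is named, without a version, in the submitters' processing notes. How the authors corrected background, which log base they took and how they normalized was not given in the sources used here, and equal values across arrays (27 to 111 per pair within a set) point to 3 separate runs.

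Of 28826 probe sets, 15209 had 1 gene symbol, 306 several and 13311 none, and 15178 matched the RefSeq table of GRCr8 by Entrez identifier. Probe sets with a mean above the 40th percentile (log2 4.78) were kept, 17295 in all, and the highest stood for each gene. Group means over all 12 arrays were fitted with limma 3.58.1 in R 4.3.3 (eBayes with an intensity trend, 8 residual degrees of freedom), with Benjamini-Hochberg adjustment over 10025 genes per comparison and calls at 0.05. The script was tested on simulated data. The number of arrays limits the precision.

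The members and lists were chosen with earlier results of these data known. Genes named were the members, up to 3 called genes of lowest adjusted p per list in the γ+ group against control, every called gene of a list in the other comparisons with control where there were 5 or fewer, the 3 genes most like Uhrf1 and Ezh1, and Mki67, Pcna, Mcm2 and Ccne2. These naming rules did not cover the cell type marker lists, of which only the genes below the cutoff are named. Alternatives were other scalings, filters, variance priors, a replicate block, the compared arrays alone and leaving out each array. Same-numbered arrays deviated with correlations of -0.22 to 0.12 over 18 pairs, so the numbers were not taken to pair samples.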

Additional observations from a re-analysis of the deposited data

How the results depend on the processing

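Over 21 settings, 876 member differences were refitted. Of these 871 kept their direction or stayed uncalled, 0 lost a call, 5 gained one and 0 called ones reversed, and 28 uncalled differences changed sign. Against control, the γ+ difference ran over the settings from 1.64 to 1.80 log2 for Uhrf1, 1.58 to 1.78 for Hells, 1.41 to 1.54 for Ezh2, 1.37 to 1.53 for Dnmt1 and 0.74 to 0.93 for Eed. The 60th percentile filter dropped Hells, whose range leaves that setting out, and 4 of the 6 members still tested were called. With the replicate block, limma called 5 members higher in the γ+ group against control, and the block changed no member's call. Calls lower in the γ- group against control ranged from 0 to 2 when arrays were left out (2 without γ+ replicate 2, 1 without control replicate 1). Over all genes that comparison had 307 higher and 389 lower, against 592 and 781 in the 6 compared arrays alone, 707 and 961 without γ+ replicate 2, 109 to 156 and 134 to 187 without any 1 control or γ- array, 565 and 798 without a filter, 196 and 229 at the 60th percentile filter, 228 and 208 after median centring, and 81 and 96 at an adjusted p under 0.01. Between the γ- and 23/24 groups, 417 were higher and 395 lower, against 983 and 777 in the 6 arrays alone, 698 and 198 after median centring, 655 and 986 without a filter, 323 and 165 at the 60th percentile filter, 110 and 100 at an adjusted p under 0.01, 1033 and 808 without γ+ replicate 2, and 124 to 292 and 140 to 234 without any 1 γ- or 23/24 array. For the 23/24 group against control, 22 higher and 36 lower were called without γ+ replicate 2. The settings for the lists were added after seeing the data. Called lower in the γ+ group were 0 PRC2 partners after median centring, 3 PRC1 subunits and 1 eraser without γ+ replicate 2, and 1 partner of DNA methylation without control replicate 3. Called higher were 2 erasers after median centring, quantile normalization or without γ+ replicate 2, 2 DNA demethylation genes after median centring and 2 methyl-CpG readers after quantile normalization. The causes were not tested.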
